A study of Mus musculus with 10 samples.

Results

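The genes described here are 38 interferon-stimulated genes, chosen by name. All 38 were found among the 31285 genes of the deposited table of inguinal white adipose tissue. The set covers the Ifi27 family, signalling factors, sensors of foreign nucleic acid and the antiviral effectors that interferons switch on. Ifi27l2a, which marks the set, is compared with the other 37. Expression was measured by RNA sequencing in 5 libraries from Ad-GHRKO mice and 5 from Flox mice, all from mice of 20 months kept on regular chow. In Ad-GHRKO mice the gene for the growth hormone receptor (Ghr) is knocked out in adipose tissue, and the sample labels write the genotype as GHR Knockdown. Flox is the genotype it is set against, and both genotypes were housed alike. The labels give neither the Cre driver nor the sex or strain, and they do not say that each sample is a separate mouse, so every p-value given rests on the spread of the samples as deposited, which may be technical.

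Interferons are secreted proteins released when cells sense viral or misplaced nucleic acid. Type I interferons act through the receptor pair Ifnar1 and Ifnar2 and the kinases Jak1 and Tyk2, which activate a transcription factor complex that contains Stat2 and Irf9. This complex binds a promoter element called the interferon-stimulated response element (ISRE). Interferon gamma acts through Ifngr1, Ifngr2, Jak1 and Jak2, and its target promoters carry a gamma-activated site (GAS). In adipose tissue these genes are expressed by macrophages, vascular and progenitor cells as well as adipocytes.

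Ghr, the targeted gene, held 15.1, 20.1, 13.0, 16.7 and 17.9 FPKM in the Ad-GHRKO libraries 1 to 5, against 72.9, 129.8, 89.7, 80.9 and 94.1 FPKM in the Flox libraries 1 to 5. FPKM scale the fragments of each gene by its length and by the total of its library. Reads recovered from these values numbered 14.6 to 19.2 M per library. Ad-GHRKO 1, Flox 5 and Flox 3 stood apart, because a list of 26 skeletal muscle genes held 21.7%, 12.5% and 7.95% of their summed FPKM, against 0.0158% to 0.33% in the other libraries. Results were therefore also computed without these 3 libraries. The adipocyte markers were abundant in every library, with summed levels of the 8 listed genes of 2986 to 8626 FPKM in Ad-GHRKO and 5777 to 9674 FPKM in Flox. In bulk tissue, fewer cells of a type and less RNA per cell cannot be told apart.

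Ifi27l2a was far lower in Ad-GHRKO than in Flox fat, while none of the other members passed the test. It encodes a small mitochondrial protein (also called Isg12b1) that has been reported to restrain fat cell differentiation in cultured mouse preadipocytes. The gene (ENSMUSG00000079017) lies on chromosome 12, 103442167 to 103443680, minus strand, GRCm38, and its exons cover 463 bases. Its level was 1024, 1010, 1544, 3153 and 988.3 FPKM in Ad-GHRKO 1 to 5, against 7055, 5277, 4465, 5296 and 3041 FPKM in Flox 1 to 5. Only Ad-GHRKO 4 reached the range of the Flox libraries, lying just above Flox 5. The Ad-GHRKO mean was 1544 ± 929.3 FPKM and the Flox mean 5027 ± 1458 FPKM (SD, n = 5 each), so the Ad-GHRKO mean was 30.7% of the Flox mean. On the log2(FPKM + 1) scale, Ifi27l2a fell by 1.81 (SE 0.37, 95% interval -2.62 to -1.01, limma adjusted p = 0.0311). Permuting the 10 libraries over the genotypes (exact, two-sided) gave p = 0.0159, where 0.00794 is the smallest that 5 against 5 libraries allow. This p is not adjusted for the number of genes, and Ifi27l2a was singled out with earlier results known. Genes whose genotypes do not overlap reach the smallest p, and these were 4.97% of all genes tested.

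The call of Ifi27l2a lay close to the threshold. Its adjusted p was 0.0388 without the 3 muscle-rich libraries, where its log2 change was -1.97. Leaving out single libraries ended the call in 7 of 10 cases, with a limma adjusted p of 0.0691 without Ad-GHRKO 2, 0.0751 without Ad-GHRKO 3, 0.0833 without Ad-GHRKO 5, 0.0641 without Flox 1, 0.0812 without Flox 2, 0.0644 without Flox 3 and 0.0776 without Flox 4. The log2 change itself stayed between -2.11 and -1.68 in all 10 cases. Quantile normalization (adjusted p = 0.0581), a block for replicate number (0.0826) and testing without a filter on low values (0.227) ended it too.

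**Figure D1:**
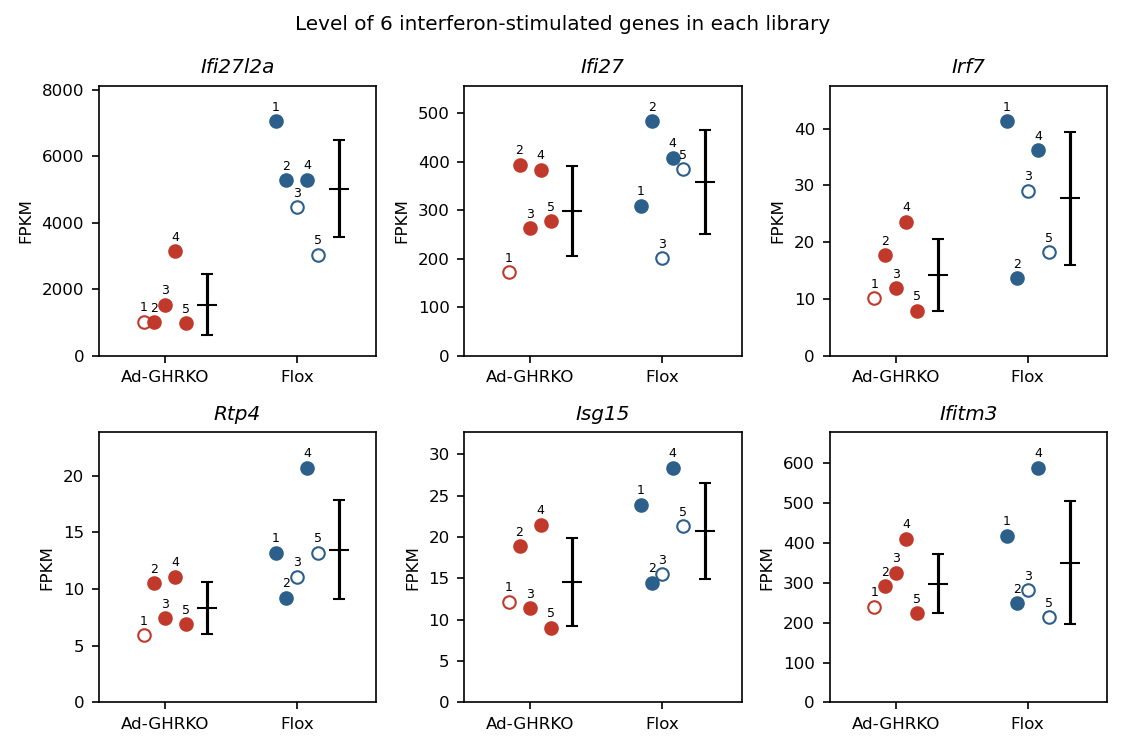
FPKM of 6 members in each library, with Ad-GHRKO left of Flox. Points are single libraries with their numbers, open points are muscle-rich libraries, and bars are mean and SD (n = 5 each). Ifi27l2a lies between 988.3 and 3153 FPKM in Ad-GHRKO and between 3041 and 7055 FPKM in Flox. The other 5 genes also overlap between the genotypes. Flox 1, 3 and 4 for Irf7, and Flox 1, 4 and 5 for Rtp4, lie above all Ad-GHRKO libraries.

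Ifi27l2a was also by far the most abundant member, and the highest of the 38 in all 10 libraries. By mean FPKM it ranked 17 among all genes of the table in Ad-GHRKO and 4 in Flox. It supplied 44.9% to 67.9% of the summed FPKM of all members in Ad-GHRKO and 74.2% to 83.8% in Flox. The other 37 members together summed to 733.7 to 1491 FPKM in Ad-GHRKO and 1006 to 1813 FPKM in Flox, which overlap. The number of reads on Ifi27l2a ran from 6688 to 51810 per library, so counting error was small beside the spread between libraries.

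Its neighbour Ifi27 is the member closest to it in family and position. Ifi27 (ENSMUSG00000064215, chromosome 12, 103434211 to 103440239, plus strand) ends 1927 bases from Ifi27l2a and also encodes a small hydrophobic protein of the family. It held 172.6, 394.4, 262.7, 383.7 and 278.1 FPKM in Ad-GHRKO 1 to 5, against 309.5, 483.8, 201.5, 408.9 and 385.3 FPKM in Flox 1 to 5. The genotypes overlapped over most of their range, and the lowest library of each was muscle-rich. The log2 change of Ifi27 was -0.26 (95% interval -0.89 to 0.36, limma adjusted p = 0.712). The ratio of Ifi27l2a to Ifi27 was 2.56 to 8.22 in Ad-GHRKO and 7.89 to 22.8 in Flox, with Flox 5 just below Ad-GHRKO 4.

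On the other side, the family gene Ifi27l2b, 7217 bases away, was at 0.0475 to 0.313 FPKM in Ad-GHRKO and 0.192 to 0.634 FPKM in Flox and was too low to test. These genes resemble each other, and how reads that match several of them were counted is not given here and was not tested. The next flanking genes, Otub2 and Ddx24 on one side, gave 0.05 and 0.16 on the log2 scale (0.899 and 0.549 as limma adjusted p), and Ppp4r4 on the other had -0.26 (adjusted p = 0.454). These neighbours were chosen after their values were seen.

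Across the whole set, 36 of 38 members had at least 1 FPKM in at least 5 libraries and were tested. Of these, 1 was lower (2.78%), against 1.42% lower among all 12785 genes tested, and 0 were higher, against 0.774%. In either direction 2.19% of all genes tested passed, so a share of 1 in 36 is near the background. No member had all libraries of one genotype above all of the other, against 4.97% of all genes tested. Among the 35 members beside Ifi27l2a, limma called 0, limma voom on recovered reads called 0 of 34, and 2 had an unadjusted p under 0.05 in limma, against 16.4% of all genes tested. These 2 were Irf7 and Rtp4.

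The small differences leaned one way. Of the 36 members, 30 (83.3%) had a negative log2 change, against 44.3% of all genes tested. The median log2 change was -0.17 for the members and 0.04 for all genes tested. Without the 3 muscle-rich libraries 12 of 36 were positive, and rescaling each library to TPM likewise left 12 positive while moving the median of all genes tested to 0.15. Single libraries mattered as well: 13 were positive without Ad-GHRKO 1, 13 without Flox 4 and 10 without Flox 1. In these 3 cases the median of the members was -0.07, -0.07 and -0.13. That of all genes tested was 0.10, 0.05 and 0.06. For 31 of the 35 other members the 95% interval of the log2 change lay within -1 and 1. The 4 whose interval reached below -1 were Irf7, Isg15, Bst2 and Rtp4. None of the 35 intervals included the change of -1.81 found for Ifi27l2a. This is partly fixed in advance, as is the count of 31, because the log2(FPKM + 1) scale understates changes of low genes. Of the members, 21 had a mean of 1 to 10 FPKM. At the Flox means of Mx2, Mx1 and Irgm1 (1.39, 2.17 and 2.26 FPKM), even complete loss would be a fall of less than 1.81. With 0.1 in place of 1 added to FPKM, the most negative change among the 35 was -0.95 for Irf7, against -1.81 for Ifi27l2a. The difference between Ifi27l2a and the other members was not itself tested, since Ifi27l2a was singled out with earlier results known.

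**Figure D2:**
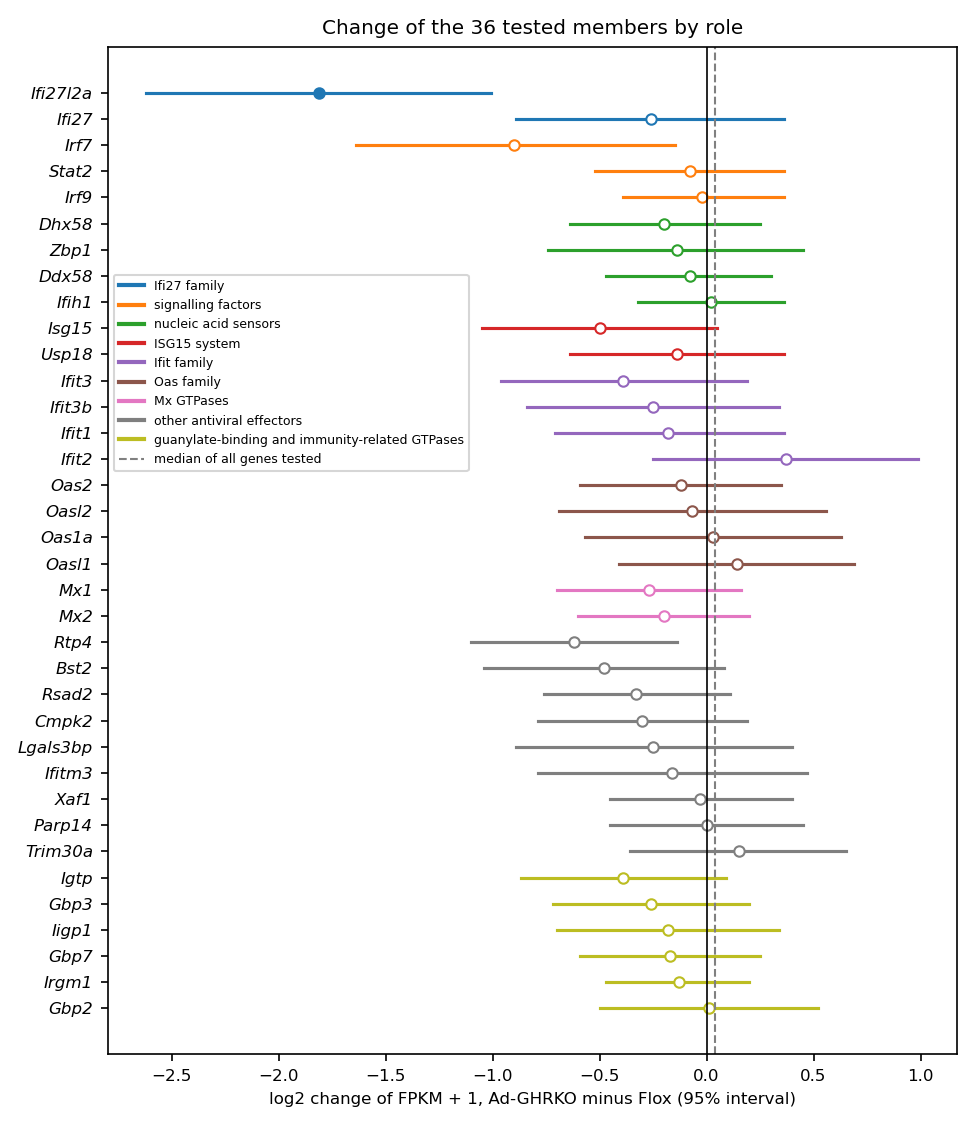
Log2 change of FPKM + 1, Ad-GHRKO minus Flox, for the 36 tested members, grouped by role from top to bottom. Points are estimates from limma with 95% intervals, and the filled point, Ifi27l2a at -1.81, is the one past the threshold. The dashed line is the median of all genes tested, 0.04.

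Among the signalling factors, Irf7 had the largest difference. Irf7 is the transcription factor that amplifies type I interferon production and is itself induced by interferon. It held 10.2, 17.7, 11.9, 23.6 and 7.94 FPKM in Ad-GHRKO 1 to 5, against 41.3, 13.7, 29.1, 36.2 and 18.3 FPKM in Flox 1 to 5. Flox 1 and 4 were highest, and Flox 2 and 5 lay among the Ad-GHRKO libraries. Its log2 change was -0.90 (SE 0.34, 95% interval -1.64 to -0.15, limma adjusted p = 0.214). Exons of Irf7 overlap Phrf1, and whether counting used the strand is not given in the sources used here. Irf9 and Stat2, subunits of the interferon-activated complex, had log2 changes of -0.02 and -0.08. Irf9 was at 4.95 to 9.04 FPKM in Ad-GHRKO and 6.25 to 10.1 FPKM in Flox, and Stat2 at 7.28 to 14.9 FPKM in Ad-GHRKO and 8.70 to 15.1 FPKM in Flox.

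The 4 sensors were low, and no sensor passed the test. Ifih1 (MDA5) and Ddx58 (RIG-I) recognise double-stranded RNA in the cytosol, Dhx58 (LGP2) modulates them, and Zbp1 binds nucleic acid in the Z conformation. Dhx58 held 2.69, 6.13, 5.07, 5.68 and 3.66 FPKM in Ad-GHRKO 1 to 5, against 6.45, 4.37, 5.23, 6.78 and 4.04 FPKM in Flox 1 to 5 (log2 change -0.20, limma adjusted p = 0.698). Zbp1 held 4.23, 6.41, 5.36, 8.49 and 3.55 FPKM in Ad-GHRKO 1 to 5, against 8.07, 3.75, 6.04, 10.3 and 4.11 FPKM in Flox 1 to 5 (log2 change -0.14, limma adjusted p = 0.843). In both genes the genotypes overlapped, and Flox 4 was the highest library. Ifih1 and Ddx58 had log2 changes of 0.02 and -0.08, with 95% intervals of -0.32 to 0.36 and -0.47 to 0.30. Dhx58 overlaps its antisense gene Dhx58os.

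Isg15 encodes a ubiquitin-like modifier that is attached to proteins during the interferon response, and Usp18 removes it and damps receptor signalling. Isg15 held 12.2, 18.9, 11.4, 21.5 and 9.05 FPKM in Ad-GHRKO 1 to 5, against 23.9, 14.5, 15.5, 28.4 and 21.3 FPKM in Flox 1 to 5. The 2 highest libraries were Flox 4 and 1, but Ad-GHRKO 2 and 4 lay above Flox 2 and 3. Its log2 change was -0.50 (95% interval -1.05 to 0.05, limma adjusted p = 0.362). Usp18 was at 2.72 to 5.59 FPKM in Ad-GHRKO and 2.81 to 7.90 FPKM in Flox (log2 change -0.14).

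The promoters of many members carry the ISRE itself. Shown here, to let the element be read in place, are the 250 bases before the annotated start of 4 members from different roles, from RefSeq (GRCm38.p6), written 5′ to 3′ on the strand of the gene. Capitals mark matches to the ISRE core, which is GAAA, any 2 bases and GAAA again, on either strand.
Isg15 (chr4:156200819-156201068, minus strand): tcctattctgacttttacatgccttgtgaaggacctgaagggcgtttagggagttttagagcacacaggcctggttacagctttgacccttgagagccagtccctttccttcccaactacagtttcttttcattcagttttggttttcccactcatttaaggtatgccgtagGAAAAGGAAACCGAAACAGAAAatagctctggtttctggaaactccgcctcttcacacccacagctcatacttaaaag
Bst2 (chr8:71537473-71537722, minus strand): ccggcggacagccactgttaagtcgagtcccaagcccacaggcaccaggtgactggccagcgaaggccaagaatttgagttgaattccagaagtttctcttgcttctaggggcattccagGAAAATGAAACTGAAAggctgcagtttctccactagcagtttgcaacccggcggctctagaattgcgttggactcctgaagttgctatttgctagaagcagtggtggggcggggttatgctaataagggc
Ifit3 (chr19:34583279-34583528, plus strand): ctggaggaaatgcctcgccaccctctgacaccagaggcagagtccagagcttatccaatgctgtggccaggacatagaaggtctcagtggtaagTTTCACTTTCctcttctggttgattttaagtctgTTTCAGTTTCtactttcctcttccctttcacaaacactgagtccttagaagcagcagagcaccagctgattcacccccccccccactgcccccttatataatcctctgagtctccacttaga
Igtp (chr11:58199306-58199555, plus strand): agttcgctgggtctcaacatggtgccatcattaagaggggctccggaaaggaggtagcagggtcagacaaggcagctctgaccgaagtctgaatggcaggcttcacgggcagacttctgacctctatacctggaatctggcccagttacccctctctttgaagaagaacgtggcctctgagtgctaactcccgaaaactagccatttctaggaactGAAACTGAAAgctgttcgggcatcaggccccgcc
In Isg15 the capitals are 3 overlapping matches, between 78 and 57 bases before the start. In Bst2 2 overlapping matches lie between 130 and 115 bases before it and overlap a match to TTCNNNGAA, the GAS core. The 2 matches of Ifit3 lie between 156 and 113 bases before its start, and the match of Igtp between 34 and 25 bases. Of the 27 members with a RefSeq promoter, 15 (55.6%) held the ISRE core in this window, against 3.46% of 27025 genes. The GAS core was in 5 of the 27 (18.5%), against 8.13% of all genes. Zbp1, Mx1, Mx2, Dhx58, Parp14, Usp18, Iigp1, Ifi27l2a, Oas2, Rtp4 and Ifi27 had no entry. Matches are descriptions of the letters, and neither Isg15, Bst2, Ifit3 nor Igtp passed the test.

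The Ifit proteins bind foreign RNA and block its translation. Ifit3, the most abundant of the 4, held 10.4, 27.4, 11.3, 20.4 and 13.1 FPKM in Ad-GHRKO 1 to 5, against 22.0, 14.4, 18.4, 27.6 and 22.4 FPKM in Flox 1 to 5 (log2 change -0.39, 95% interval -0.96 to 0.19, limma adjusted p = 0.515). Ad-GHRKO 2 was almost level with Flox 4, the highest library. Ifit1 and Ifit3b had log2 changes of -0.18 and -0.25. Ifit2 had the opposite sign, with 5.15 ± 1.93 FPKM in Ad-GHRKO and 3.64 ± 1.32 FPKM in Flox (SD, n = 5 each). Its log2 change of 0.37 was the highest among the members (95% interval -0.25 to 0.99, limma adjusted p = 0.572), and its lowest library was the muscle-rich Ad-GHRKO 1. Ifit3 and Ifit3b are near-identical copies, so their separate values are uncertain.

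Oas proteins sense double-stranded RNA and make the oligoadenylate that activates RNase L, while the Oas-like genes encode relatives. Oas2 held 6.83, 10.8, 9.31, 13.3 and 10.3 FPKM in Ad-GHRKO 1 to 5, against 16.6, 7.72, 11.6, 12.1 and 8.15 FPKM in Flox 1 to 5 (log2 change -0.12, limma adjusted p = 0.839). The genotypes overlapped fully apart from Flox 1 above and Ad-GHRKO 1 below. Oas1a, Oasl1 and Oasl2 had log2 changes of 0.03, 0.14 and -0.07. Oas3 was too low to test, with 0.590 to 1.25 FPKM in Ad-GHRKO and 0.293 to 1.87 FPKM in Flox.

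Mx1 and Mx2 are dynamin-like GTPases that trap viral components, and Mx1 is defective in many inbred mouse strains. Mx1 held 0.910, 2.18, 1.44, 1.77 and 1.64 FPKM in Ad-GHRKO 1 to 5, against 2.93, 1.30, 2.08, 3.09 and 1.42 FPKM in Flox 1 to 5. Flox 1 and 4 stood above all Ad-GHRKO libraries and Flox 2, 3 and 5 among them (log2 change -0.27, limma adjusted p = 0.553). Mx2 had 1.10 ± 0.447 FPKM in Ad-GHRKO and 1.39 ± 0.432 FPKM in Flox (SD, n = 5 each). At these levels Mx2 rested on 29 to 122 reads per library, so counting error adds to the spread.

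Of the other antiviral effectors, Rtp4 differed most and Ifitm3 was the most abundant. Rtp4, a receptor transporter protein that also restricts some viruses, held 5.92, 10.5, 7.41, 11.1 and 6.90 FPKM in Ad-GHRKO 1 to 5, against 13.2, 9.23, 11.1, 20.7 and 13.2 FPKM in Flox 1 to 5. Flox 2 lay below Ad-GHRKO 2 and 4, and Flox 1, 4 and 5 above all of the Ad-GHRKO libraries. The log2 change was -0.62 (SE 0.22, 95% interval -1.10 to -0.14, limma adjusted p = 0.186), the smallest adjusted p among the members after Ifi27l2a. Rtp4 overlaps the gene model Gm45338. Ifitm3, which blocks fusion of viruses with endosomal membranes, held 239.5, 291.1, 324.8, 410.5 and 224.1 FPKM in Ad-GHRKO 1 to 5, against 418.0, 248.0, 281.1, 588.2 and 214.0 FPKM in Flox 1 to 5. The extremes of Ifitm3 were both Flox libraries (log2 change -0.16, limma adjusted p = 0.832).

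Bst2 (tetherin), which holds budding virus at the cell surface, was at 55.4 to 141.4 FPKM in Ad-GHRKO and 90.9 to 169.9 FPKM in Flox (log2 change -0.48, 95% interval -1.04 to 0.08). Lgals3bp, a secreted galectin-binding glycoprotein, was at 87.8 to 245.1 FPKM in Ad-GHRKO and 135.7 to 265.1 FPKM in Flox (log2 change -0.25). Rsad2 (viperin) and its neighbour Cmpk2, which together make an antiviral nucleotide, gave -0.33 and -0.30 on the log2 scale (0.463 and 0.565 as limma adjusted p). Those of Trim30a, Parp14 and Xaf1 were 0.15, 0.00 and -0.03. Ifi44 reached 1 FPKM in 1 library and was not tested, with 0.569 ± 0.181 FPKM in Ad-GHRKO and 0.929 ± 0.375 FPKM in Flox (SD, n = 5 each).

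The guanylate-binding proteins and immunity-related GTPases, which respond strongly to interferon gamma and attack vacuoles that hold pathogens, also overlapped between the genotypes. Gbp2, the most abundant, held 15.2, 30.1, 24.1, 38.7 and 27.8 FPKM in Ad-GHRKO 1 to 5, against 24.6, 24.8, 25.4, 36.9 and 20.0 FPKM in Flox 1 to 5 (log2 change 0.01, 95% interval -0.50 to 0.52). Its direction was not fixed, since median ratio scaling gave -0.02 and leaving out single libraries gave -0.13 to 0.20. Igtp held 11.3, 15.2, 10.7, 17.1 and 11.6 FPKM in Ad-GHRKO 1 to 5, against 21.1, 13.3, 18.5, 25.8 and 11.4 FPKM in Flox 1 to 5 (log2 change -0.39, limma adjusted p = 0.423). Flox 1, 3 and 4 lay above all Ad-GHRKO libraries, and Flox 2 and 5 did not. Gbp3, Gbp7, Iigp1 and Irgm1 had log2 changes of -0.26, -0.17, -0.18 and -0.13. Exons of Igtp overlap Irgm2, and these families hold similar genes.

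Many members were high or low in the same libraries of a genotype. Within Flox, library 4 was the highest for 28 of the 38 members and library 2 the lowest for 23. Within Ad-GHRKO, library 4 was the highest for 25 and the muscle-rich library 1 the lowest for 26. The median of the other 37 members, each taken relative to its own mean, was -0.59, 0.15, -0.10, 0.22 and -0.16 on the log2 scale in Ad-GHRKO 1 to 5, against 0.29, -0.26, 0.09, 0.55 and -0.21 in Flox 1 to 5. The same median over all genes tested was -0.32 in Ad-GHRKO 1, -0.22 in Flox 5 and between -0.01 and 0.13 in the other libraries. Within the 7 muscle-poor libraries, Flox 4 was the highest for 29 of 38 members, and Flox 2 and Ad-GHRKO 5 were the lowest for 20 and 12.

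**Figure D3:**
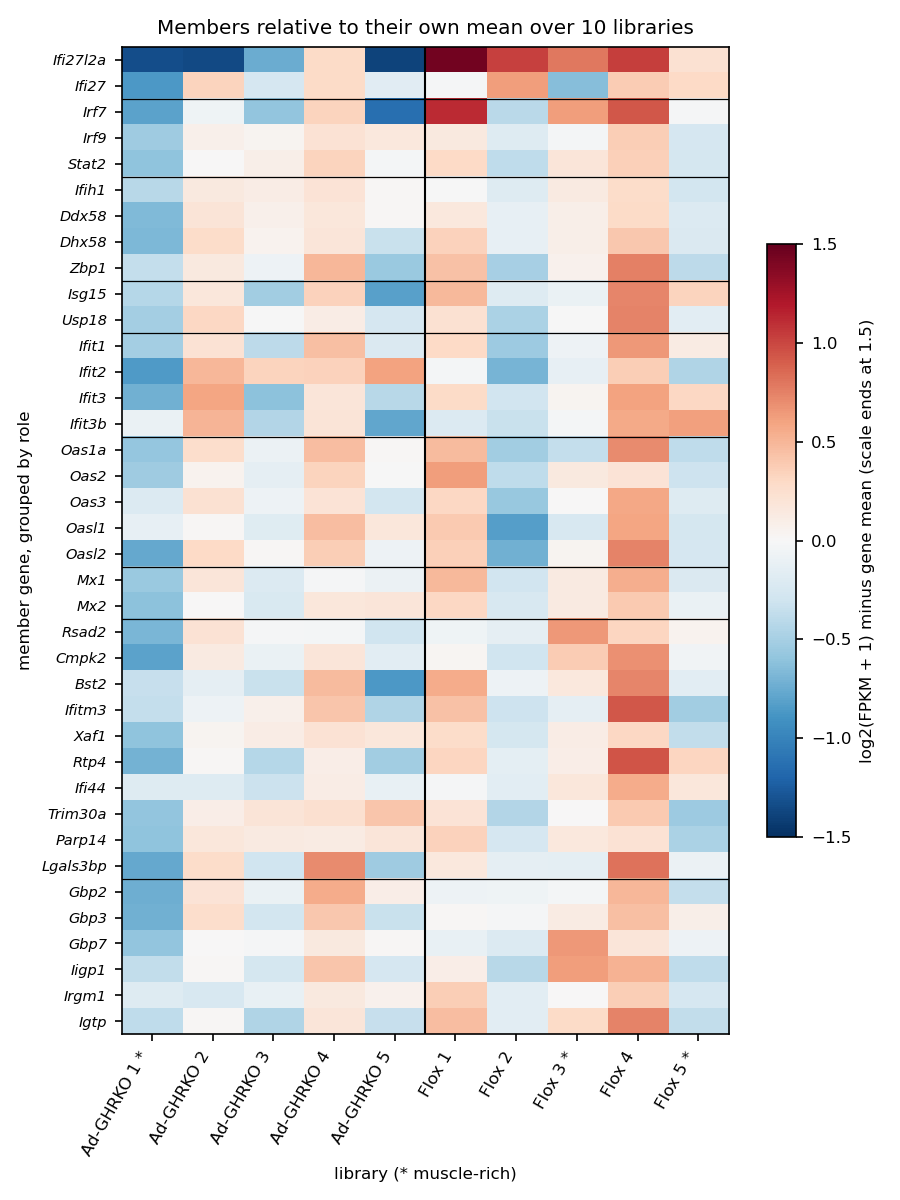
Log2(FPKM + 1) of the 38 members (rows, grouped by role) in 10 libraries (columns, Ad-GHRKO left of Flox), each minus the gene's mean. Asterisks mark muscle-rich libraries. Flox 4, Flox 1 and Ad-GHRKO 4 are high across most rows and Ad-GHRKO 1 and Flox 2 low. The top row, Ifi27l2a, is low in Ad-GHRKO 1, 2, 3 and 5. It is above its mean in Ad-GHRKO 4 (0.29) and in all Flox libraries, from 0.23 in Flox 5 to 1.45 in Flox 1.

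Ifi27l2a followed part of this pattern. Within Ad-GHRKO it too was highest in library 4, at 11.62 on the log2(FPKM + 1) scale, with 9.95 to 10.59 in the others. Within Flox its order differed, since library 2, lowest for most members, was at 12.37, level with library 4. Set against the median of the other 37 members in the same library, Ifi27l2a lay 7.69, 7.09, 7.87, 8.41 and 7.18 log2 units above it in Ad-GHRKO 1 to 5, against 9.60, 9.94, 9.19, 8.91 and 8.98 in Flox 1 to 5. The mean was 7.65 ± 0.539 in Ad-GHRKO and 9.32 ± 0.437 in Flox (SD, n = 5 each). On this relative scale the genotypes did not overlap, as for 2.27% of all genes tested when set against the same median. The level of Ifi27l2a alone did overlap.

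**Figure D4:**
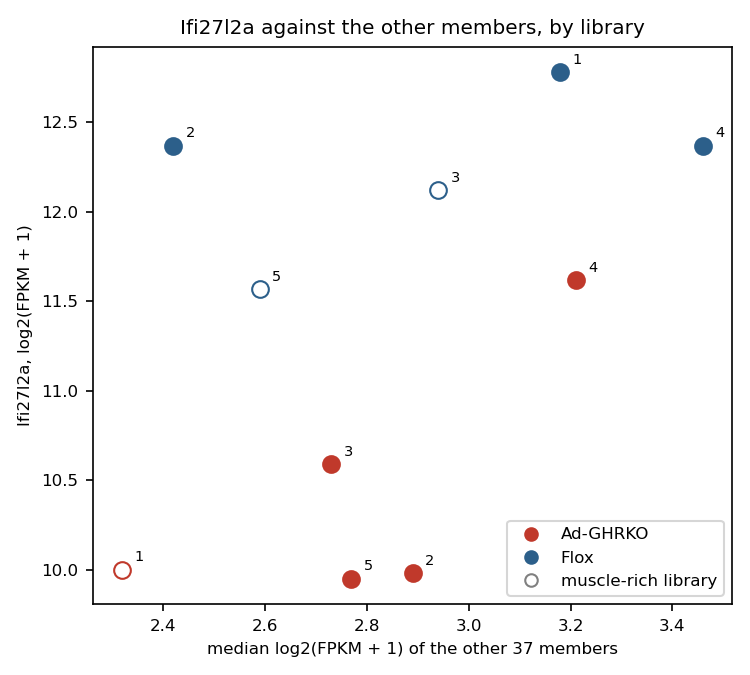
Level of Ifi27l2a (vertical axis, log2 FPKM + 1) against the median level of the other 37 members (horizontal axis, same scale), 1 point per library with its number. Open points are muscle-rich libraries. Ifi27l2a lies 7.09 to 8.41 log2 units above the other members in Ad-GHRKO and 8.91 to 9.94 in Flox, and the medians on the horizontal axis span 2.32 to 3.21 in Ad-GHRKO and 2.42 to 3.46 in Flox.

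The rest of the interferon pathway, 109 listed genes found in the table of which 89 were tested, held no gene past the threshold with all libraries. By limma 0 of 89 passed, with 13 at an unadjusted p under 0.05 (14.6%, against 16.4% of all genes tested), and voom called 0. Without Ad-GHRKO 1, 7 of the 89 passed (5 higher and 2 lower, 7.87%), which is no more than the 9.27% of all genes tested that passed without that library. For 4 of the 89 (4.49%) the genotypes did not overlap, against 4.97% of all genes tested. Interferon gamma itself (Ifng) was at 0 to 0.121 FPKM in Ad-GHRKO and 0 to 0.0866 FPKM in Flox, and Ifnk and Ifnz were at most 0.085 FPKM in any library. Of 14 listed interferon ligands only these 3 were found in the deposited table, and Ifnb1 and the listed Ifna genes were absent from it. No interferon ligand was therefore tested.

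In the receptor and kinase list, 9 of 11 tested genes had positive log2 changes and 2 negative, where 44.3% of all genes tested were negative. Ifngr2, a chain of the interferon gamma receptor, was at 11.4 to 21.8 FPKM in Ad-GHRKO and 7.29 to 11.2 FPKM in Flox (log2 change 0.54, limma adjusted p = 0.147). Jak1, the kinase shared by both receptor types, was at 26.2 to 42.0 FPKM in Ad-GHRKO and 20.9 to 30.6 FPKM in Flox (log2 change 0.46, adjusted p = 0.151, and 0.0248 without Ad-GHRKO 1). The type I receptor chains Ifnar1 and Ifnar2 had log2 changes of 0.06 and 0.07. Among the interferon regulatory factors, the log2 change of Irf5 was 0.55 (limma adjusted p = 0.437) and that of Irf1 -0.31 (0.572), and 3 of 6 were negative.

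Among sensing adaptors and kinases, Mavs, the mitochondrial adaptor of the RNA sensors, was at 13.9 to 17.5 FPKM in Ad-GHRKO and 19.2 to 22.3 FPKM in Flox. The genotypes did not overlap, yet the log2 change of -0.39 did not pass (limma adjusted p = 0.0914, and 0.0464 without Ad-GHRKO 1). Ikbke, a kinase that activates interferon regulatory factors, had 0.48 (adjusted p = 0.241, and 0.0380 without Ad-GHRKO 1). Of 61 further interferon-stimulated genes tested, 39 had negative changes, against 44.3% of all genes tested. Their median was -0.07, against 0.04 for all genes tested. Cxcl10, a chemokine induced by interferons, was at 1.34 to 2.53 FPKM in Ad-GHRKO and 2.76 to 6.19 FPKM in Flox (log2 change -0.73, limma adjusted p = 0.0677, and 0.0456 without Ad-GHRKO 1). Cxcl9, induced by interferon gamma, had -0.74 (adjusted p = 0.14). Cxcl9 passed without the 3 muscle-rich libraries (log2 change -0.79, adjusted p = 0.0367).

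Levels of cell type markers also differed between libraries. The 11 macrophage markers summed to 962.4 to 2491 FPKM in Ad-GHRKO and 664.5 to 1984 FPKM in Flox, with Flox 2 and 5 lowest. All 11 log2 changes were positive, from 0.11 for C1qa to 1.08 for Cd68, but 0 of 11 passed the test. Among all genes tested 44.3% were negative. T cell markers summed to 3.97 to 8.46 FPKM in Ad-GHRKO and 3.52 to 20.9 FPKM in Flox, and NK cell markers to 2.52 to 5.19 FPKM in Ad-GHRKO and 2.58 to 12.9 FPKM in Flox. Flox 1 had the highest T cell sum and Flox 4 the highest NK cell sum. Monocyte markers summed to 19.7 to 155.8 FPKM in Ad-GHRKO and 20.5 to 72.0 FPKM in Flox. The 155.8 FPKM was that of the muscle-rich Ad-GHRKO 1, where Nr4a1 alone held 132.7 FPKM, and the next Ad-GHRKO library was at 41.8 FPKM. Of the 4 tested monocyte markers, Nr4a1 had a log2 change of 1.49, while Ly6c2, Plac8 and Ccr2 had -0.62, -0.63 and -0.24. None of these 4 passed. Of 4 tested markers of conventional dendritic cells, Clec9a, Cd209a and Zbtb46 did not pass, with log2 changes of -0.09, -0.05 and 0.16. The remaining 1 was higher in Ad-GHRKO, as were 0.774% of all genes tested. This was Itgax (CD11c), which macrophages also express, with 6.67 ± 4.24 FPKM in Ad-GHRKO and 1.34 ± 0.716 FPKM in Flox (SD, n = 5 each, log2 change 1.59, limma adjusted p = 0.0447). The call of Itgax ended without the 3 muscle-rich libraries (adjusted p = 0.0581) and when any single library other than Ad-GHRKO 1 or 4 was left out (0.0611 to 0.118). Siglech, the defining marker of plasmacytoid dendritic cells, was at 0.226 to 0.595 FPKM in Ad-GHRKO and 0.348 to 0.745 FPKM in Flox. It was too low to test. Of the 8 genes listed for this cell type 3 were tested and none passed. These were Bst2, Ly6d and Tcf4, with log2 changes of -0.48, -0.42 and 0.03. Of the 8 adipocyte markers none passed. Adipoq was at 458.0 to 1178 FPKM in Ad-GHRKO and 1247 to 2452 FPKM in Flox (limma adjusted p = 0.117), and Retn at 165.2 to 486.8 FPKM in Ad-GHRKO and 508.4 to 1065 FPKM in Flox (adjusted p = 0.055), so that neither overlapped between the genotypes. Lep had the opposite sign, with 768.4 ± 333.4 FPKM in Ad-GHRKO and 283.3 ± 96.4 FPKM in Flox (SD, n = 5 each, log2 change 1.35, limma adjusted p = 0.115). The log2 changes of the other 5 adipocyte markers were -0.27 for Plin1, 0.10 for Cidec, -0.09 for Fabp4, -0.63 for Pparg and -0.73 for Slc2a4. The part of these cell types in the level of Ifi27l2a and the other members was not tested.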

How the data were processed

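Polyadenylated RNA of 10 samples was sequenced, 5 per genotype, per the labels' protocols. The authors deposited gene FPKM, 1 column per library, per the file headers. The submitters' processing notes name GRCm39, but 31109 of 31253 identifiers shared with GENCODE M21 had its GRCm38 coordinates, which are used here. Which aligner and counter made them is not given here. FPKM times M21 exon length gave whole reads (tolerance 0.01) for 99.43% to 99.49% of values. FPKM depends on the library total, so a large share of muscle transcripts in a library leaves a smaller share to the rest.

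The test took the 12785 genes that reached 1 FPKM in 5 or more libraries. Values were put on the log2(FPKM + 1) scale and fitted by limma 3.58.1 (R 4.3.3), whose trend option was on, with two-sided p-values and a Benjamini-Hochberg threshold of 0.05. The scale understates changes of low genes. The fit was tested on simulated data drawn from the Flox means, with the same dispersion for every gene. Every simulated library had the same expected share of muscle genes, so that test does not cover the muscle-rich libraries. Members and lists were chosen with earlier results of these data known. Values by library are given for Ifi27l2a, Ifi27, called members and, per role, the most abundant member and the one with the smallest p. Other members and Ifnar1, Ifnar2, Ifng, Ifnk, Ifnz and single cell type markers were named after their values were seen. No 2 libraries were identical. Alternatives were other pseudocounts (0.1, 0.5), filters, scalings, a replicate block, a muscle covariate, voom, and leaving out libraries. Promoters came from RefSeq, and Python 3.11.15 with pandas 2.3.3 read the table.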

Additional observations from a re-analysis of the deposited data

Results flagged for a closer look

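Among 28 sets of 5 libraries checked (the 13 members given by library and Ghr, in each genotype), 1 held a library far from the others. Ifi27l2a in Ad-GHRKO 4 was at 3153 FPKM, where the other Ad-GHRKO libraries lay between 988.3 and 1544 FPKM, so the gap took 0.743 of the range, above the critical value of 0.71. About 5% of such sets are marked by chance. Without Ad-GHRKO 4 the log2 change of Ifi27l2a was -2.11 (limma adjusted p = 0.00977).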

How the results depend on the processing

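The log2 change of Ifi27l2a kept its direction in all 21 alternatives. Its call ended with no filter (-1.81, limma adjusted p = 0.227) and quantile normalization (-1.45, 0.0581), and leaving out 1 library gave -2.11 to -1.68, with adjusted p of 0.00977 to 0.0833. With no filter, quantile normalization or the replicate block, 0 members were lower, and leaving out 1 library gave 0 to 1. No member was higher in any alternative. Same-numbered libraries gave correlations of -0.489 to 0.394. Differently numbered libraries were not compared, so these values cannot decide whether the numbers pair samples. With the replicate block the call of Ifi27l2a ended too (-1.81, limma adjusted p = 0.0826), and 85 genes were called in all.

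Over all genes, 280 were called (64.6% lower). The number was 117 with no filter, 547 with median ratio scaling, 565 with quantile normalization, 870 with the muscle covariate, 777 without the muscle-rich libraries (51.4% lower) and 116 to 1185 when 1 library was left out. TPM rescaling gave 39.7% lower. Of the 89 other pathway genes tested, median ratio scaling called 3 (3.37%, against 4.28% of all genes tested). Quantile normalization called 2 (2.25% against 4.42%) and the muscle covariate 7 (7.87% against 6.8%). Without the muscle-rich libraries 3 were called (3.37% against 6.08%). Leaving out 1 library gave 0 to 7, the 7 without Ad-GHRKO 1 (7.87% against 9.27%). Gbp2 turned with median ratio scaling (-0.02) and the muscle covariate (-0.03). When 1 library was left out Gbp2 ranged from -0.13 to 0.20, Zbp1 from -0.29 to 0.03, Oas2 from -0.23 to 0.02 and Ifitm3 from -0.31 to 0.05. The causes were not tested. Depth limits Mx2, Oas3 and Ifi44, with 29 to 122, 37 to 236 and 44 to 167 reads per library.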
